A study of Mus musculus with 2 samples.

Results

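The cells described here are macrophages from tumour-bearing mouse livers that carried RNA of Spp1, Arg1 or Gpnmb, the genes of osteopontin, arginase 1 and glycoprotein NMB. They were picked by a gate on counts of RNA molecules, each marked by a unique molecular identifier (UMI): at least 3 UMIs of Spp1, Arg1 and Gpnmb together, at least 2 UMIs of Lyz2 and Csf1r together, and none of Cd3d, Cd3e, Cd3g, Cd79a or Siglech. The gate took 72 of 5746 cells in the Vsig4 KO library and 181 of 6872 cells in the WT library, or 253 of 12618 cells in all.

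Live (DAPI-negative) CD45+ single cells had been sorted by flow cytometry from livers enriched for metastases of B16F10, a mouse melanoma cell line, after collagenase IV and DNase I digestion and red cell lysis, and were sequenced with the 10x Genomics 5′ chemistry. There was 1 library from Vsig4-/- mice (Vsig4 KO) and 1 from WT mice, both with the tumour. The labels do not give the number, age or sex of the mice in either library, nor how the Vsig4 allele was made. With 1 library per genotype there is no replicate check: no test was run, and every interval is a 95% interval of counting error only, which leaves out the variation between mice, sorts and libraries.

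Osteopontin is a secreted matrix protein that binds integrins and CD44, arginase 1 breaks down arginine and is a mark of alternatively activated myeloid cells in mice, and GPNMB is a membrane glycoprotein of late endosomes and lysosomes that is raised in lipid-laden macrophages. Macrophages with this RNA are recruited to injured, fibrotic and tumour-bearing tissue, where they take up lipid and debris and release matrix, angiogenic and chemotactic factors. In the liver they are held to come mainly from blood monocytes, and to differ from Kupffer cells, the resident macrophages that carry VSIG4, a receptor for complement fragments.

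The Vsig4 KO library held 5799 barcodes and the WT library 6929, of which 5746 and 6872 passed the filters of at least 200 genes, 500 UMIs and at most 10% mitochondrial UMIs. Gated cells had a median of 6881 UMIs (666 to 33497) in Vsig4 KO and 6042 (535 to 49823) in WT, with medians of 2039 and 1929 genes. The libraries shared 54 barcodes, none of them gated. Vsig4 itself had 0 UMIs in the gated cells of both libraries, so the gated cells do not check the knockout label, while all cells outside the gate gave a ratio of 0.0779 (Vsig4 KO over WT). The Y-linked Gm47283 had 1 UMI in gated Vsig4 KO cells and 125 in gated WT cells, and its ratio in the rest of the libraries was 0.0825. With 1 library per genotype, the Vsig4 genotype and any other difference between the libraries cannot be told apart.

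The label was checked on Fabp5 and Thbs1, markers that the gate did not use. Fabp5, an intracellular fatty acid carrier, ranged over single Vsig4 KO cells from 0 to 110 UMIs with a median of 3.5, and over WT cells from 0 to 188 with a median of 2. Thbs1, the gene of the matrix protein thrombospondin 1, ranged from 0 to 333 UMIs with a median of 2 in Vsig4 KO cells, and from 0 to 202 with a median of 5 in WT cells. Fabp5 was found in 49 of 72 Vsig4 KO and 120 of 181 WT cells and Thbs1 in 38 and 119, with single cells far above the rest. Over all gated cells Fabp5 stood at 1506 CPM (UMIs per 1000000 UMIs of these cells) in Vsig4 KO and 1353 CPM in WT, which was 7.46 and 7.45 times the level in the other Lyz2 or Csf1r cells of the same library. Thbs1 stood at 1862 and 2584 CPM, or 2.30 and 4.34 times the other cells.

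Of the 10 general macrophage markers, all had UMIs in the gated cells of both libraries, and 8 were at least 1.5-fold above the other Lyz2 or Csf1r cells in both. Kupffer cell markers summed to 79.8 CPM in Vsig4 KO and 42.6 CPM in WT, with Clec4f, Timd4, Vsig4 and Cdh5 at 0 in Vsig4 KO and Timd4, Marco, Vsig4 and Cdh5 at 0 in WT. Most gated cells held no Kupffer marker UMI: 18.1% of Vsig4 KO and 8.84% of WT cells held any. Melanoma markers, which name the tumour cells, summed to 175 CPM in Vsig4 KO (7 of 8 genes, Tyr at 0) and 262 CPM in WT (8 of 8), against 82.9 and 85.8 CPM in the other Lyz2 or Csf1r cells. Most of these UMIs were of Mitf (82 in Vsig4 KO and 251 in WT), a transcription factor gene that macrophages also express. The sum over the list thus moved with membership of the gate, but with most of it from Mitf it does not measure tumour RNA. The part of tumour RNA in the profile was not tested.

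At the edge of the gate, cells with exactly 3 carrier UMIs numbered 11 in Vsig4 KO and 16 in WT, and cells with exactly 2, just outside, 19 and 49. Inside the edge Fabp5 stood at 1445 CPM in Vsig4 KO and 791 CPM in WT, and just outside at 617 and 778 CPM. Thbs1 stood at 1030 CPM in Vsig4 KO and 703 CPM in WT inside the edge, and at 433 and 1059 CPM just outside, so in WT it was lower inside. Another 48 Vsig4 KO and 53 WT cells reached 3 carrier UMIs but failed the remaining rules, most often for too little Lyz2 and Csf1r (28 and 29 cells).

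The gated macrophages made up a smaller share of the sorted Vsig4 KO cells than of the sorted WT cells. They were 1.25% (0.982 to 1.58, Clopper-Pearson) of Vsig4 KO cells and 2.63% (2.27 to 3.04) of WT cells, a ratio of 0.476 (0.357 to 0.628). All Lyz2 or Csf1r cells that passed the same exclusions differed to the same extent, with 9.80% in Vsig4 KO and 20.1% in WT (ratio 0.487, 0.441 to 0.538). Within those cells the gated share was 12.8% (10.1 to 15.8) in Vsig4 KO and 13.1% (11.4 to 15.0) in WT, a ratio of 0.976 (0.733 to 1.29). The lower share of gated macrophages thus moved with the share of the whole Lyz2 or Csf1r population, and within that population the intervals allow a ratio from 0.733 to 1.29. A share of sorted cells depends on how many cells of every other type were recovered, and recovery was not measured here.

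The profile was described by setting gated cells against the other Lyz2 or Csf1r cells of the same library, 491 in Vsig4 KO and 1201 in WT. Since the gate chose the cells on their RNA, these ratios are a description with no test. Of 9482 genes counted, 488 (5.15%) were at least 1.5-fold higher in gated cells in both libraries and 1464 (15.4%) at least 1.5-fold lower, and the median gene stood at -0.12 in Vsig4 KO and -0.13 in WT on the log2(CPM + 10) scale. The genes of the gate led by construction: Spp1 was 294-fold higher in Vsig4 KO and 342-fold in WT, Arg1 156-fold and 175-fold, and Gpnmb 40.1-fold and 60.5-fold.

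Genes of the hypoxia response, which cells switch on through hypoxia-inducible factors when oxygen is short, formed the programme list with the highest WT median. Of 17 counted members 14 were higher in gated cells past 1.5-fold in both libraries and none was lower, with list medians of 1.40 in Vsig4 KO and 1.49 in WT (log2). Hilpda, which blocks lipid droplet breakdown, was 7.45-fold higher in Vsig4 KO and 8.06-fold in WT. Vegfa, the gene of the angiogenic growth factor VEGF-A, was 5.43-fold and 7.48-fold higher. Bnip3, a mitophagy receptor, was 4.25-fold and 6.48-fold higher, and the glucose transporter gene Slc2a1 2.83-fold and 2.89-fold. Ankrd37, an ankyrin repeat gene induced by hypoxia, was 2.23-fold and 3.42-fold higher.

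The core of the element that hypoxia-inducible factors bind reads ACGTG, or CACGT on the other strand, and the upstream stretches of 5 hypoxia genes are shown because the list was among the highest of the profile. They come from the RefSeq promoter table for GRCm38.p6, run 5′ to 3′ on the gene's strand upstream of the gene's most upstream listed start, ending short of it where the core lies further away, and carry the core in capitals, where CACGTG is an overlap of both strands' matches. Ankrd37 (chr8:45999851-45999891, minus strand), P4ha1 (chr10:59323245-59323295, plus strand), Bnip3 (chr7:138909574-138909648, minus strand), Slc2a1 (chr4:119108674-119108744, plus strand) and Cited2 (chr10:17723041-17723115, plus strand) read:
Ankrd37: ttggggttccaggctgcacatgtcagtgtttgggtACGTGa
P4ha1: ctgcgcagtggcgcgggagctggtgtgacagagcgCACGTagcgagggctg
Bnip3: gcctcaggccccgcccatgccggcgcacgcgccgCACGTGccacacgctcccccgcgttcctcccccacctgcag
Slc2a1: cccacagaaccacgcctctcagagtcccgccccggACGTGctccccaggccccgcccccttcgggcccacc
Cited2: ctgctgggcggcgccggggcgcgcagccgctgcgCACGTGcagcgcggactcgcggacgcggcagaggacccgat

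The core lay 6 bases before the start in Ankrd37, 16 in P4ha1, 36 in Slc2a1, 107 in Bnip3 and 152 in Cited2. Counting any promoter of a gene on both strands, from 250 bases before to 50 after a start, 13 of 17 matched hypoxia genes (76.5%) and 10 of 15 glycolytic genes (66.7%) held it, against 5 of 12 lysosomal genes (41.7%), 0 of 7 MHC class II genes and 5886 of 27025 genes in the whole table (21.8%). The hypoxia genes without it in this window were Adm, Kdm3a, Car12 and Pdk1. These shares follow from which genes the lists hold and say nothing about the activity of the factors in these cells. The 5 genes shown were picked by hand, and all of them hold the core. A match of these letters is a description of the sequence, and binding was not measured.

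Glycolytic enzyme genes were higher alongside, 11 of 14 past the fold in both libraries and none lower (medians 1.13 in Vsig4 KO and 1.19 in WT). Tpi1, triosephosphate isomerase, was 3.61-fold higher in Vsig4 KO and 3.20-fold in WT, and Pgk1, phosphoglycerate kinase, 3.04-fold and 3.15-fold. Aldoa, aldolase A, was 2.77-fold and 2.73-fold higher. Of 23 oxidative phosphorylation genes none was past the fold in either direction, with medians of 0.12 and -0.01.

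Lipid handling genes were higher in 12 of 17 cases and lower in none (medians 1.42 in Vsig4 KO and 1.43 in WT). Lpl, which releases fatty acids from lipoproteins, was 3.66-fold higher in Vsig4 KO and 4.68-fold in WT. Abca1, the cholesterol exporter, was 4.91-fold and 4.66-fold higher, Plin2, a lipid droplet coat protein gene, 3.12-fold and 3.26-fold, and the lipid receptor gene Trem2 3.43-fold and 2.55-fold. Apoe, apolipoprotein E, was 2.11-fold and 1.73-fold higher. Among lysosomal genes 5 of 18 were higher and none lower (medians 0.41 and 0.37): the cathepsin genes Ctsl (5.16-fold and 4.88-fold), Ctsd (3.91-fold and 2.93-fold) and Ctsb (3.02-fold and 2.57-fold), the legumain gene Lgmn (3.0-fold and 2.66-fold), and the proton pump subunit gene Atp6v0d2 (13.7-fold and 7.70-fold, from 37 and 12 UMIs).

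Lists of secreted factors were also higher in part. Of 21 matrix and angiogenesis genes 11 were higher and none lower: Plau, the urokinase gene, was 8.45-fold higher in Vsig4 KO and 6.71-fold in WT, and Mmp12, macrophage elastase, 4.25-fold and 4.26-fold. Of 17 chemokine genes 10 were higher and none lower, with the monocyte chemokine gene Ccl2 at 5.66-fold and 6.11-fold and Ccl7 at 6.6-fold and 14.5-fold. Pf4, platelet factor 4, which macrophages also make, was 6.66-fold and 5.6-fold higher, and of the other platelet markers Ppbp had 19 UMIs in Vsig4 KO and 13 in WT, Gp9 1 and 0, and Itga2b and Gp1bb 0 in both. Il10, a suppressive cytokine gene, was 4.39-fold and 5.12-fold higher.

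Part of the interferon and MHC class I genes ran the other way against the other Lyz2 or Csf1r cells, and MHC class II genes did so mainly in WT. Of all genes counted, 15.4% were lower past the fold there. Of 16 interferon-gamma response genes 8 were lower in gated cells in both libraries and none higher (medians -0.75 in Vsig4 KO and -0.68 in WT), and of 18 type I interferon genes 6 were lower and none higher (medians -0.26 and -0.48). MHC class I genes were lower in 5 of 14 cases (medians -0.54 and -0.42). MHC class II genes were lower past the fold in both libraries in 3 of 10 cases, but the medians lay apart, at -0.15 in Vsig4 KO and -1.01 in WT. The list summed to 24085 CPM in gated and 23520 CPM in other cells of Vsig4 KO, and to 17438 and 25287 CPM in WT. All 7 non-classical monocyte markers were lower, as were 5 of 8 classical monocyte markers, while 1, the fibronectin gene Fn1, was higher (1.81-fold and 1.92-fold).

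**Figure D1:**
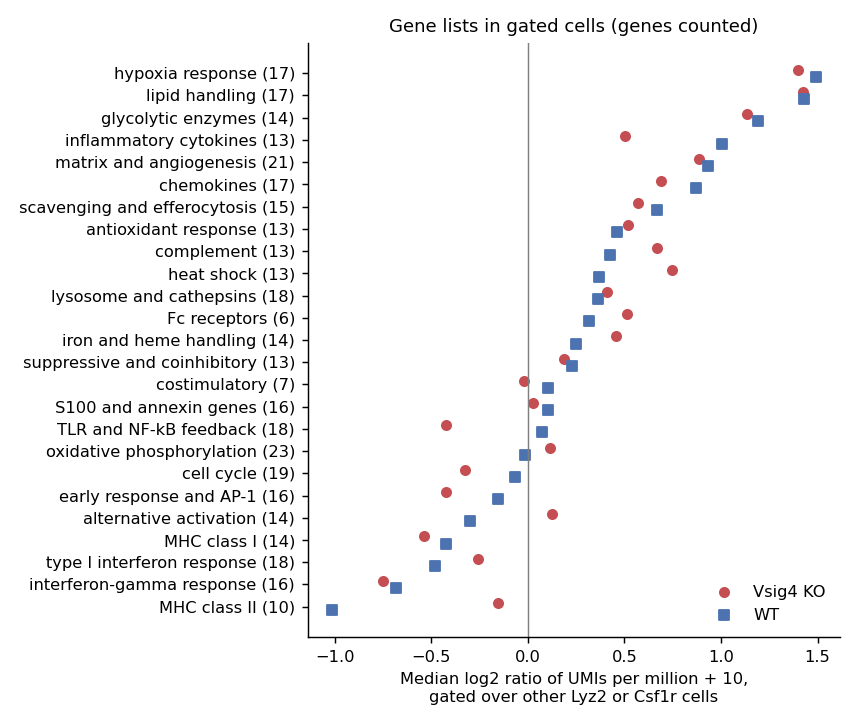
Median log2 ratio of CPM + 10 between gated macrophages and the other Lyz2 or Csf1r cells of the same library, by gene list (number of genes counted in brackets), for the Vsig4 KO library (circles) and the WT library (squares). Hypoxia (1.40 in Vsig4 KO and 1.49 in WT), lipid handling (1.42 and 1.43) and glycolysis (1.13 and 1.19) lie at the top, and the interferon and MHC lists are the lowest in WT, with the MHC class II points apart (-0.15 in Vsig4 KO and -1.01 in WT).

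Against the 138 Vsig4 KO and 253 WT macrophages that carried C1q RNA outside the gate, 312 of 6615 genes (4.72%) were higher in gated cells in both libraries and 406 (6.14%) lower. Hypoxia genes were again higher in 14 of 17 cases and glycolytic genes in 10 of 14, while lipid handling genes were higher in 5 and lower in 1. Vegfa was 8.32-fold higher than in C1q macrophages in Vsig4 KO and 5.70-fold in WT, and Hilpda 8.63-fold and 5.82-fold. Cell cycle genes were lower in 11 of 17 cases and higher in none. MHC class II genes were lower in 1 of 9 cases and higher in none (medians 0.06 in Vsig4 KO and -0.94 in WT). MHC class I genes were lower in 1 of 14 cases. Of 14 type I interferon genes 1 was higher and none lower, and of 11 interferon-gamma response genes 5 were lower. C1qa, a subunit of the complement starter C1q and one of the genes that defined the compared cells, stood at 0.480 and 0.404 of their level. Lysosomal genes were higher than in C1q macrophages in 2 of 18 cases and lower in 1 (medians -0.07 in Vsig4 KO and -0.03 in WT). Of the 10 general macrophage markers, which include the C1q genes, 3 were lower and none higher. The 1 platelet marker counted was not past the fold in both libraries. Against 161 Vsig4 KO and 391 WT monocytes with Ly6c2, 538 of 7794 genes (6.9%) were higher and 1219 (15.6%) lower. Fabp5 was 19.7-fold above those monocytes in Vsig4 KO and 10.5-fold in WT. MHC class II genes were higher than in those monocytes in 4 of 9 cases and lower in none (medians 1.32 and 0.11). MHC class I genes were lower in 5 of 14 cases, type I interferon genes in 9 of 18 and interferon-gamma response genes in 11 of 14.

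The gated cells were not uniform in the gene that carried them through the gate. Cells with at least 3 UMIs of Spp1 alone numbered 27 of 72 in Vsig4 KO (37.5%, 26.4 to 49.7) and 86 of 181 in WT (47.5%, 40.1 to 55.1). Cells with Gpnmb alone numbered 15 (20.8%, 12.2 to 32.0) and 27 (14.9%, 10.1 to 20.96), and cells with Arg1 alone 9 (12.5%, 5.88 to 22.4) and 6 (3.31%, 1.23 to 7.08). Several of the genes reached 3 UMIs in 20 Vsig4 KO cells (27.8%, 17.9 to 39.6) and 55 WT cells (30.4%, 23.8 to 37.6), and no gene did so alone in 1 and 7 cells. The share of Arg1-only cells was 3.77 times higher in Vsig4 KO (1.20 to 12.9), while the intervals of the other share ratios spanned 1: Spp1 only 0.789 (0.492 to 1.23), Gpnmb only 1.40 (0.691 to 2.72) and several 0.914 (0.519 to 1.55). Reaching 3 UMIs depends on depth, and Spp1-only cells had a median of 9933 UMIs in Vsig4 KO and 6484 in WT, against 3543 and 5210 in Gpnmb-only cells.

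**Figure D2:**
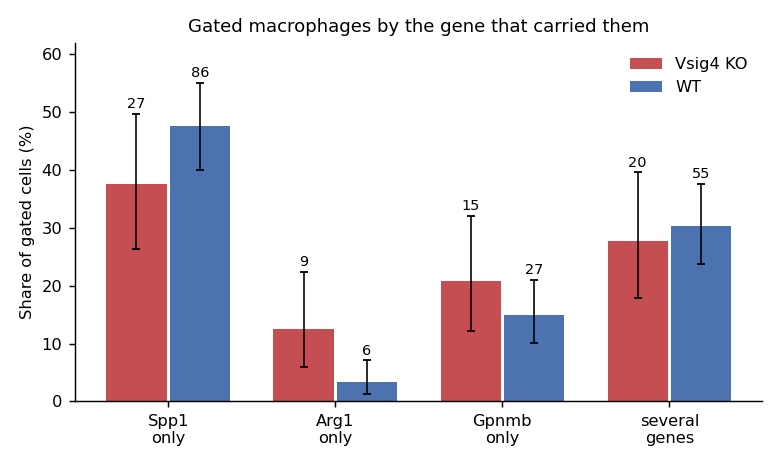
Share of gated macrophages (%, bars) that reached 3 UMIs of only Spp1, only Arg1, only Gpnmb or of several of them, in the Vsig4 KO library (left bar, 72 cells) and the WT library (right bar, 181 cells), with 95% Clopper-Pearson intervals and cell numbers above. Spp1-only cells are the most frequent in both libraries, and the Arg1-only bars are 12.5% in Vsig4 KO and 3.31% in WT.

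Cells with Gpnmb alone carried more RNA of lipid handling genes than Spp1-only cells. Melanoma markers summed to 80.5 CPM in Vsig4 KO and 642 CPM in WT in Gpnmb-only cells, against 128 and 199 CPM in Spp1-only cells. Mlana had 11 UMIs in 2 WT Gpnmb-only cells and 0 in the other 3 groups. The part of melanoma RNA in the differences below, and in the Gpnmb UMIs that carried these cells through the gate, was not tested. Of 3175 genes counted, 113 (3.56%) were higher past 1.5-fold in Gpnmb-only cells in both libraries and 503 (15.8%) lower. Fabp5 was 12.95-fold higher in Vsig4 KO and 4.2-fold in WT, Apoe 6.29-fold and 2.46-fold, and Cd63, a lysosomal membrane tetraspanin gene, 13.05-fold and 2.18-fold. Igf1, insulin-like growth factor 1, was 10.7-fold and 5.37-fold higher, and Acp5, the tartrate-resistant acid phosphatase of osteoclasts and lipid-laden macrophages, 5.70-fold and 3.05-fold. Lower in the Gpnmb-only cells were the chemokine genes Ccl5 (0.0774-fold and 0.0939-fold) and Ccl7 (0.0657-fold and 0.184-fold), and Nlrp3, the inflammasome sensor (0.126-fold and 0.263-fold). As a list, lipid handling genes summed to 27573 CPM in Vsig4 KO and 14730 CPM in WT in Gpnmb-only cells, against 6138 and 8482 CPM in Spp1-only cells. Lysosomal genes summed to 28008 CPM in Vsig4 KO and 15908 CPM in WT in Gpnmb-only cells, against 12290 and 11873 CPM in Spp1-only cells, but Ctsl was lower in the Gpnmb-only cells of both libraries (290 and 271 CPM, against 541 and 348 CPM).

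Cells that carried several of the genes stood apart from Spp1-only cells in other ways, with 175 of 3831 genes (4.57%) higher in both libraries and 420 (11%) lower. Thbs1 reached 3700 CPM in Vsig4 KO and 3778 CPM in WT in these cells, against 1015 and 2167 CPM in Spp1-only cells. Gdf15, a stress-induced cytokine gene, was 7.08-fold higher in Vsig4 KO and 7.05-fold in WT, and Serpinb2, a plasminogen activator inhibitor gene, 12.9-fold and 7.82-fold. The hypoxia genes Ankrd37 (5.48-fold and 2.87-fold), Hilpda (4.07-fold and 2.30-fold) and Ndrg1 (2.69-fold and 2.98-fold) were higher. Among the lowest were 3 genes that encode enzymes of sterol synthesis, picked after their values were seen: Idi1 at 0.0311-fold and 0.134-fold, Cyp51 at 0.127-fold and 0.138-fold, and Fdps at 0.110-fold and 0.209-fold. Plac8 stood at 0.301-fold and 0.296-fold and Irf8, a factor of monocyte and dendritic cell fate, at 0.377-fold and 0.385-fold. The classical monocyte list, to which Plac8 belongs, summed to 2316 CPM in Vsig4 KO and 3411 CPM in WT in these cells, against 2759 and 3258 CPM in Spp1-only cells.

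MHC class II RNA was spread unevenly over these cells. It summed to 31886 CPM in Vsig4 KO and 19254 CPM in WT in Spp1-only cells, to 19850 and 15106 CPM in cells with several genes, to 14278 and 17185 CPM in Gpnmb-only cells, and to 8041 and 3184 CPM in Arg1-only cells. The Arg1-only cells were the lowest in both libraries.

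**Figure D3:**
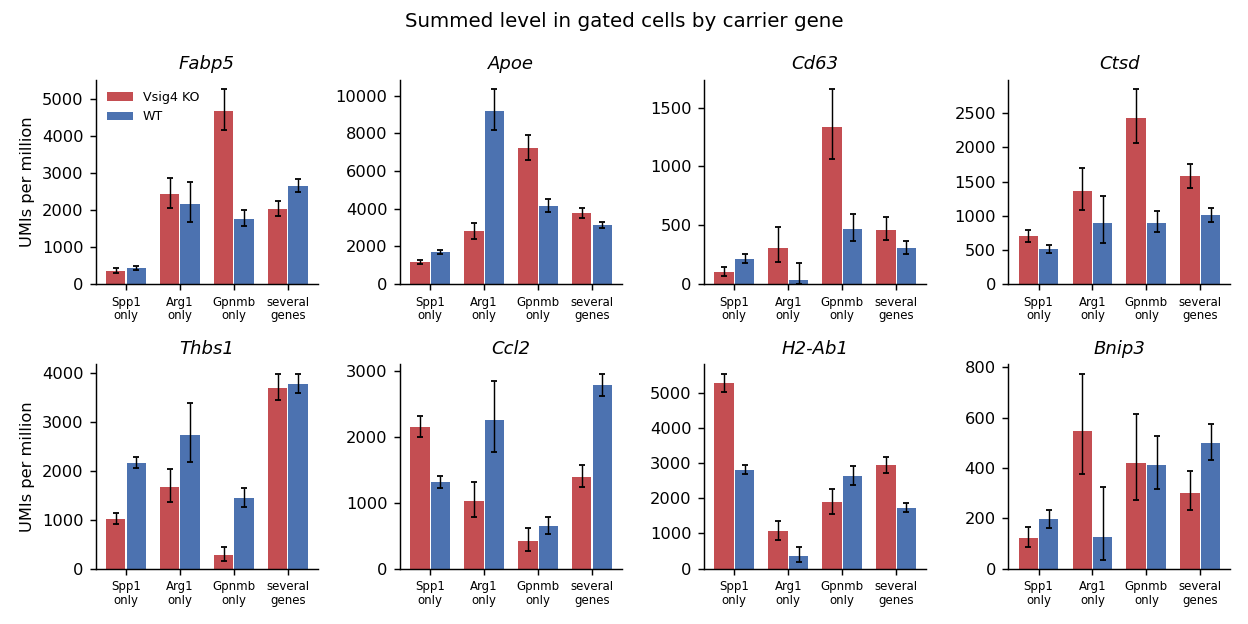
Summed level (CPM, linear axis from 0) of 8 genes in gated macrophages carried by Spp1 alone, Arg1 alone, Gpnmb alone or several of them, in the Vsig4 KO library (left bars) and the WT library (right bars), with exact Poisson intervals. Fabp5 in Gpnmb-only cells stands at 4684 CPM in Vsig4 KO and 1760 CPM in WT, against 362 and 419 CPM in Spp1-only cells, while H2-Ab1 is highest in Vsig4 KO Spp1-only cells (5271 CPM).

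The gated cells of the Vsig4 KO library were then set against those of the WT library. Of 4355 genes with at least 50 UMIs, 300 (6.89%) were at least 1.5-fold higher in Vsig4 KO, 221 of them (5.07% of genes) with a counting interval above 1, and 347 (7.97%) were at least 1.5-fold lower, 222 (5.1%) with an interval below 1. The median gene stood at -0.00 on the log2(CPM + 10) scale. Of the 647 genes past the fold, 47 were past it in the same direction in all other cells of the libraries. The same share over all genes counted was not worked out. Those other cells are a mixture that differed between the libraries: Lyz2 or Csf1r cells were 9.80% of Vsig4 KO and 20.1% of WT cells. The count thus does not show which ratios were particular to the gated cells. The sums give deep cells more weight, so the share of a gene's UMIs that lay in its 3 richest cells is given where it was large.

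MHC class II genes, which load and present peptides to CD4 T cells, were higher in the gated Vsig4 KO cells. All 7 counted members lay above 1 and 2 were past 1.5-fold (28.6%, against 6.89% of all genes), with a list median of 0.43. H2-Ab1 ranged over Vsig4 KO cells from 0 to 236 UMIs with a median of 7.5, and over WT cells from 0 to 172 with a median of 3. The ranges overlapped widely. Its summed level was 3803 CPM in Vsig4 KO and 2424 CPM in WT, a ratio of 1.57 (1.49 to 1.66), and H2-DMb1, a subunit of the peptide loader H2-DM, had a ratio of 1.96 (1.61 to 2.39). Cd74, the invariant chain gene, stood at 11867 and 8828 CPM (1.34, 1.31 to 1.38). Ciita, the regulator of these genes, had 25 and 33 UMIs and an interval that spanned 1 (1.44, 0.824 to 2.50).

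The sum over the list gave a ratio of 1.38 (1.35 to 1.41) in gated cells, 0.930 in the other Lyz2 or Csf1r cells and 0.959 in all cells outside the gate. After every cell was thinned to 2000 UMIs before the gate, which left 38 Vsig4 KO and 107 WT cells, the list median was -0.01 and the H2-Ab1 ratio 1.22. Of gated cells thinned to 2000 UMIs after the gate, 69.8% in Vsig4 KO and 57.1% in WT held an H2-Ab1 UMI (57.0 to 80.8 and 48.9 to 64.9), with 9 Vsig4 KO and 25 WT cells left out as too shallow; unthinned, the shares were 79.2% and 68.5%. B cells also express this gene and give no background for it. Dendritic cell markers also moved with this list, at 214 CPM in Vsig4 KO (7 of 8 genes, Fscn1 at 0) and 121 CPM in WT (8 of 8), with 5 or more such UMIs in 6 Vsig4 KO and 5 WT cells, and their part in the result was not tested.

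Complement C1q RNA was found in more of the gated Vsig4 KO cells. C1qa had 0 to 77 UMIs with a median of 4 over Vsig4 KO cells, and 0 to 88 with a median of 0 over WT cells. Thus most Vsig4 KO cells carried it and most WT cells did not. Thinned to 2000 UMIs, 34 of 63 Vsig4 KO cells (54.0%, 40.9 to 66.6) and 51 of 156 WT cells (32.7%, 25.4 to 40.7) held a C1qa UMI, against 61.1% and 35.4% unthinned. In B cells, which should lack it, the thinned shares were 0.303% and 0.237%, at median depths of 2845 and 2476 UMIs. The summed ratios were 1.47 (1.32 to 1.65) for C1qa, 1.40 (1.29 to 1.51) for C1qb and 1.46 (1.31 to 1.62) for C1qc, each just short of 1.5-fold. Across all settings tried the C1qa ratio lay between 1.18 and 2.05. Of the 12 counted complement genes none was past the fold upward, with a list median of 0.07. The sum over the list gave a ratio of 1.28 (1.22 to 1.34) in gated cells, 1.18 in the other Lyz2 or Csf1r cells and 0.850 in all cells outside the gate. Of the other Lyz2 or Csf1r cells, 138 of 491 in Vsig4 KO and 253 of 1201 in WT held at least 3 C1q UMIs. Whether the gated cells differed from them in this was not tested.

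Hypoxia genes were lower in the gated Vsig4 KO cells as a list. Of 17 counted members 15 lay below 1, 3 of them past 1.5-fold (17.6%, against 7.97% of all genes), and 1 was past it upward, with a median of -0.35. Vegfa ranged from 0 to 32 UMIs over Vsig4 KO cells with a median of 0, and from 0 to 36 with a median of 1 over WT cells. Its level was 242 CPM in Vsig4 KO and 389 CPM in WT, a ratio of 0.62 (0.52 to 0.75). Thinned, 11 of 63 Vsig4 KO cells (17.5%, 9.05 to 29.1) and 59 of 156 WT cells (37.8%, 30.2 to 45.9) held a Vegfa UMI, with 37.5% and 54.7% unthinned and 0.848% and 1.27% of thinned B cells. P4ha1, a collagen prolyl hydroxylase subunit, had a ratio of 0.55 (0.42 to 0.72) and Ankrd37 of 0.43 (0.27 to 0.65).

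Cited2, which feeds back on hypoxia-inducible factor, was the member above the fold (353 CPM in Vsig4 KO and 216 CPM in WT, ratio 1.63, 1.36 to 1.96). Hilpda, the most abundant RNA of the list, stood at 768 and 795 CPM with an interval that spanned 1. The list median lay between -0.46 and -0.28 in all settings tried. Glycolytic enzyme genes did not follow: 1 of 14 was past the fold downward (7.14%, against 7.97% of all genes) and none upward, and the median was 0.10. That gene was Hk1, hexokinase 1 (0.53, 0.34 to 0.81). Aldoa (1.15) and Gapdh (1.18), glycolytic enzymes both, were slightly higher.

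Lipid and lysosomal genes had small list medians, at 0.15 and 0.07. In the lipid list 4 of 17 were past the fold upward (23.5%, against 6.89% of all genes) and none downward. One was Fabp4, a fatty acid carrier (3.33, 2.42 to 4.61, with 60.0% of its Vsig4 KO UMIs in 3 cells). The others were Pltp, the phospholipid transfer protein (1.54), Trem2 (1.51, 1.18 to 1.93) and Lipa, lysosomal acid lipase (59 and 74 UMIs). Ctsd, cathepsin D, ranged from 0 to 78 UMIs over Vsig4 KO cells with a median of 6, and from 0 to 28 over WT cells with a median of 3. Its level was 1209 CPM in Vsig4 KO and 734 CPM in WT, a ratio of 1.65 (1.49 to 1.82), and it lay between 1.33 and 2.14 in all settings tried. Apoe (2740 and 2756 CPM) and Lgals3, galectin 3 (4282 and 4491 CPM), were close in the libraries' sums.

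**Figure D4:**
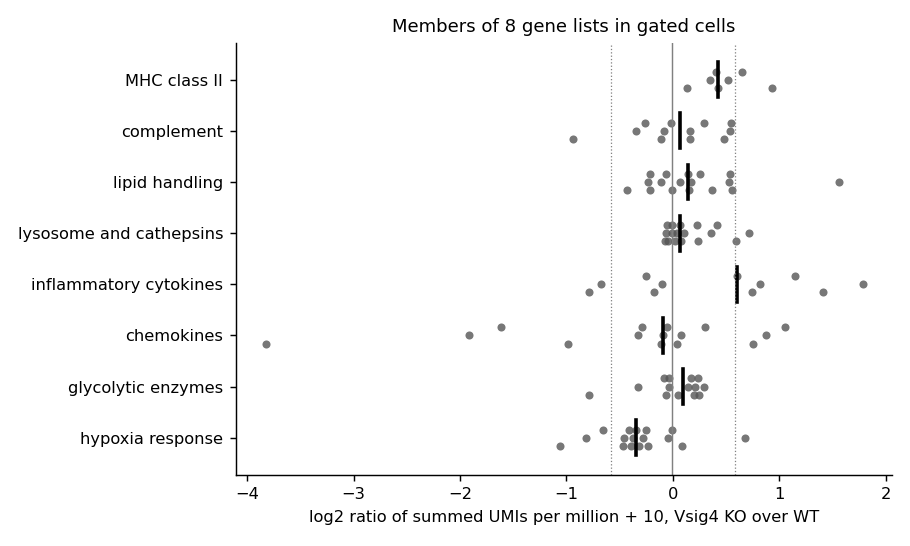
Log2 ratio of CPM + 10 between gated Vsig4 KO and gated WT macrophages for each counted member of 8 gene lists (points; positive is higher in Vsig4 KO), with the list median (black bar), no difference (grey line at 0) and 1.5-fold (dotted lines). All 7 MHC class II members lie right of 0 (median 0.43) and 15 of 17 hypoxia members lie left of it (median -0.35), while chemokine and cytokine members scatter to both sides.

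Cytokine genes were spread to both sides and rested on few cells. Of 11 counted, 6 were past the fold upward (54.5%, against 6.89% of all genes) and 2 downward (18.2%, against 7.97%), with a median of 0.60. That median was -0.45 after thinning before the gate, -0.03 on the mean of per-cell CPM and -0.10 over members with at least 200 UMIs. The sum over the list gave a ratio of 0.978 (0.944 to 1.01) in gated cells and 1.80 in the other Lyz2 or Csf1r cells. Il23a, a subunit of interleukin 23, had 98.7% of its Vsig4 KO UMIs in 3 cells, Inhba, the activin A subunit, 98.5%, and Areg, the growth factor amphiregulin, 89.8%. Tnf, tumour necrosis factor, was carried by more cells, 27 of 72 in Vsig4 KO and 73 of 181 in WT, with 500 CPM in Vsig4 KO and 295 CPM in WT (1.70, 1.45 to 1.98; 43.1% in 3 Vsig4 KO cells). Il1a, interleukin 1 alpha, had a ratio of 2.29 (1.89 to 2.79), with 75.4% of its Vsig4 KO UMIs in 3 cells.

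Il1rn, which encodes the receptor antagonist that blocks interleukin 1, was lower. It stood at 530 CPM in Vsig4 KO and 997 CPM in WT, a ratio of 0.53 (0.47 to 0.60), yet 68.1% of Vsig4 KO cells and 54.7% of WT cells held a UMI, with highest cells of 35 and 114 UMIs. The sum and the share of cells thus ran in opposite directions for this gene. Il1b, interleukin 1 beta, stood at 4593 and 5180 CPM (0.89, 0.85 to 0.93).

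Among 15 counted chemokine genes 3 were past the fold upward (20.0%, against 6.89% of all genes) and 4 downward (26.7%, against 7.97%), with a median of -0.09. The sum over the list gave a ratio of 0.968 (0.946 to 0.991) in gated cells and 1.47 in the other Lyz2 or Csf1r cells. Ccl12, a monocyte attractant of mice, had a ratio of 2.15, with 74.6% of its Vsig4 KO UMIs in 3 cells. Cxcl1 (1.86) and Cxcl10 (1.72), attractants of neutrophils and of T cells, had 73.1% and 73.9% in 3 cells. Cxcl9, another T cell attractant, had 0 UMIs in Vsig4 KO and 161 in WT (4.97% of cells, 93.2% of the UMIs in 3 of them). Cxcl3 had a ratio of 0.241 (0.175 to 0.326), Ccl24, an eosinophil attractant, 0.253 (0.137 to 0.435), and Ccl5 0.488, with 70.6% of its WT UMIs in 3 cells.

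Monocyte RNA was lower in the gated Vsig4 KO cells for part of its genes. Ly6c2, the surface marker of classical monocytes, was held by 11 of 72 Vsig4 KO cells (15.3%) and 51 of 181 WT cells (28.2%), with a summed ratio of 0.46. Plac8 had a ratio of 0.61 and Chil3, a chitinase-like protein gene, of 0.62. Of the 7 counted classical monocyte markers 5 lay below 1 and 2 above it, with a list median of -0.23. These 3 genes were the ones past 1.5-fold downward (42.9%, against 7.97% of all genes), and 0 were past it upward. Neutrophil markers summed to 98.5 CPM in Vsig4 KO (5 of 8 genes, Retnlg, Cxcr2 and Ly6g at 0) and 481 CPM in WT (7 of 8, Ly6g at 0), and T or NK cell markers to 7.82 and 152 CPM. Over single cells the neutrophil sum ran from 0 to 3780 CPM in Vsig4 KO and from 0 to 76494 CPM in WT, each with a median of 0, and 1 Vsig4 KO and 7 WT cells held 5 or more such UMIs. T or NK cell markers were held by 6.94% of Vsig4 KO and 7.73% of WT cells, with 5 or more such UMIs in 0 and 3 cells. The part of either list in the differences between the libraries was not tested. Gated cells with 10 or more UMIs of S100a8 and S100a9 numbered 1 in Vsig4 KO and 3 in WT. Leaving them out turned the direction of none of the recomputed gene ratios that were past 1.5-fold. Ratios short of that fold were not checked for a turn.

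By the fixed rule of size, the genes furthest above 1 were Rsad2, an interferon-induced antiviral gene (4.15, 37 and 17 UMIs), St3gal5, a ganglioside synthase (4.13), Hdac9, a histone deacetylase (4.06), and Serpinb6a, a protease inhibitor (3.75). After them came F3, tissue factor (3.50), Cadm1, an adhesion molecule (3.44), Gm42031 (3.39), Fabp4 and Gdf15 (3.31). St3gal5, Hdac9, F3, Cadm1 and Gdf15 each had 75% or more of their Vsig4 KO UMIs in 3 cells, while Rsad2 had 51.4% and Serpinb6a 44.1%. Gm42031 had a ratio of 3.03 in all cells outside the gate. Fh1, fumarate hydratase of the citric acid cycle (2.96), Slc9a7, an organelle proton exchanger (2.78), and Cd300ld3 (2.72) completed the 12.

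The genes furthest below 1 were Chil1, a chitinase-like protein gene with 0 UMIs in Vsig4 KO and 79 in WT, and the Y-linked Gm47283 (0.015). Chil1 had a ratio of 0.038 in all cells outside the gate. Mir155hg, the host transcript of miR-155, followed at 0.138, Map3k5, the stress kinase ASK1, at 0.140 (78.0% of its WT UMIs in 3 cells), and the transcript AW112010 at 0.212. Tnfrsf23, a decoy receptor (0.226), Cxcl3, Gnl1 (0.247), Gpat3, an acyltransferase of triglyceride synthesis (0.249), Slpi, a secreted inhibitor of neutrophil elastase (0.261), and Tent5a (0.263) were also among the lowest. AW112010 was held by 7 of 72 Vsig4 KO cells and 38 of 181 WT cells.

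The genotype ratio differed between cells carried by different genes. In Spp1-only cells (27 in Vsig4 KO and 86 in WT) the sums of Cd63 (0.48, 0.31 to 0.70), Trem2 (0.54, 0.29 to 0.95) and Lgals3 (0.62, 0.57 to 0.68), lysosomal and lipid genes, were lower in Vsig4 KO. Cd63 was held by 8 Vsig4 KO and 26 WT cells of this set, Trem2 by 8 and 30 and Lgals3 by 26 and 81. The sums thus differed more than the shares of cells with a UMI did. In Gpnmb-only cells (15 and 27) the sums of the same genes were higher, with Cd63 at 2.84 (2.05 to 3.96), Trem2 at 3.13 (1.70 to 5.82) and Lgals3 at 2.05 (1.83 to 2.30). Cd63 was held there by 14 Vsig4 KO and 14 WT cells, Trem2 by 9 and 11 and Lgals3 by all. Mmp12 followed the same order, from 0.087 (0.018 to 0.27) in Spp1-only cells to 4.46 (3.32 to 6.03) in Gpnmb-only cells. Its value in Spp1-only cells came from 3 UMIs in 2 Vsig4 KO cells and 68 UMIs in 8 WT cells. The chemokine genes Ccl2 and Ccl7 ran the other way: they were higher in Vsig4 KO Spp1-only cells (1.64, 1.48 to 1.82, and 1.51, 1.30 to 1.76) and lower in Vsig4 KO cells with several genes (0.50, 0.44 to 0.57, and 0.53, 0.45 to 0.62).

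C1qa, Ctsd and Vegfa ratios pointed the same way in these 3 sets of cells. C1qa stood at 1.18 (1.005 to 1.39) in Spp1-only cells, 1.66 (1.33 to 2.06) in cells with several genes and 2.90 (2.18 to 3.87) in Gpnmb-only cells. Ctsd stood at 1.37, 1.55 and 2.70 in the same order. Vegfa was below 1 in the same sets, at 0.50 (0.36 to 0.69), 0.78 (0.60 to 1.01) and 0.12 (0.024 to 0.36, from 3 Vsig4 KO and 62 WT UMIs). In the 9 Vsig4 KO and 6 WT Arg1-only cells Vegfa ran the other way, at 2.55 with an interval that spanned 1 (0.848 to 10.3). H2-Ab1 was higher in Spp1-only cells (1.88, 1.75 to 2.01) and cells with several genes (1.70, 1.52 to 1.90), and lower in Gpnmb-only cells (0.71, 0.58 to 0.88). These sets are small, and no test of the differences between them was possible with 1 library per genotype.

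**Figure D5:**
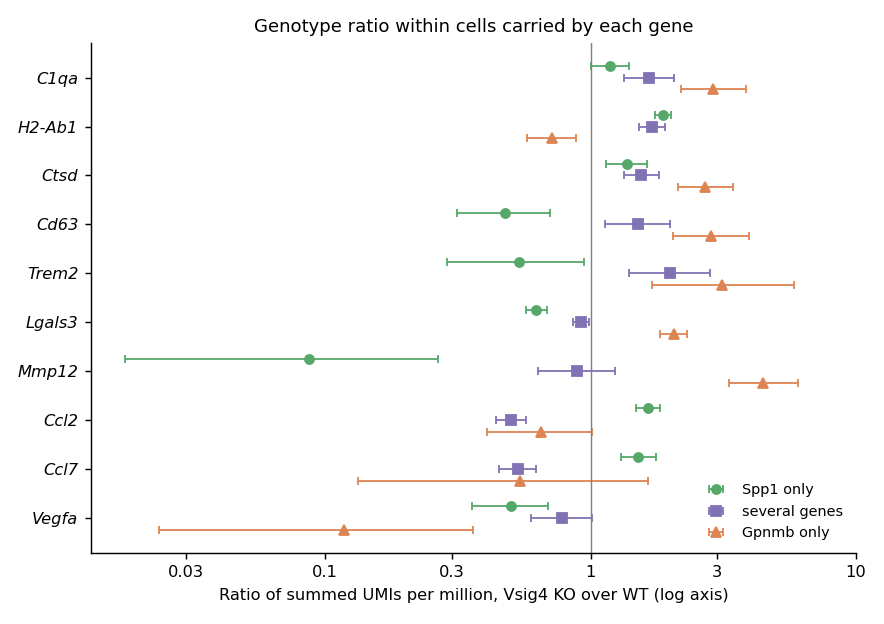
Ratio of summed CPM, Vsig4 KO over WT (log axis, with exact conditional binomial intervals), of 10 genes within gated macrophages carried by Spp1 alone (circles), several genes (squares) or Gpnmb alone (triangles). Cd63, Trem2, Lgals3 and Mmp12 lie below 1 in Spp1-only cells and above it in Gpnmb-only cells, and of these 3 sets Ccl2 and Ccl7 lie above 1 in Spp1-only cells alone.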

How the data were processed

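The deposited values are UMI counts per gene and cell for 1 Vsig4 KO and 1 WT library, which the authors made with Cell Ranger 7.1.0 on mm10, per the submitters' processing notes, and 31253 genes were listed. Cells with under 200 genes, under 500 UMIs or over 10% of UMIs from mitochondrial genes were left out. Gated cells were summed per library and given as CPM, and ratios carry exact conditional binomial intervals, shares Clopper-Pearson intervals and levels exact Poisson intervals (95%), all for counting error only. Genes needed 50 UMIs over both libraries, 1.5-fold was the threshold of size, and log2 values used CPM + 10. Of genes with a UMI in at least 10% of gated cells of 1 library, those named were the 12 highest and 12 lowest by genotype, the 12 highest and 8 lowest by profile and up to 6 members per list, plus gate genes and markers. Further list members, and the genes named within sets of cells that share a carrier gene, were chosen after their values were seen. Scrublet's own threshold marked 1 Vsig4 KO cell (0.0174%) and 0 WT cells and so did not work, and no cell was removed from the main results. A further setting left out the 267 Vsig4 KO and 381 WT cells with the highest doublet scores, 2 and 5 of them gated. The members and the 16 marker and 25 programme lists were chosen with earlier results of these data known. Python 3.11.15, numpy 2.4.6, scipy 1.17.1, pandas 2.3.3 and scanpy 1.11.5 were used, and the counting was tested on simulated data. Some genes that the naming rule would include are not reported here.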

Additional observations from a re-analysis of the deposited data

Results flagged for a closer look

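Several genes had Vsig4 KO over WT ratios past 1.5-fold in opposite directions in different sets of cells, each with a counting interval off 1, and the difference was not tested because there was 1 library per genotype. Trem2 stood at 0.537 in Spp1-only cells and 1.99 in cells with several carrier genes. Cd63 stood at 0.476 in Spp1-only cells, 1.51 in cells with several and 2.84 in Gpnmb-only cells. Lgals3 stood at 0.623 in Spp1-only and 2.05 in Gpnmb-only cells, and Mmp12 at 0.0873 (from 3 Vsig4 KO and 68 WT UMIs) and 4.46. Cd9 stood at 0.539 in cells with several and 1.72 in Gpnmb-only cells. Ccl2 stood at 1.64 in Spp1-only cells and 0.501 in cells with several, and Ccl7 at 1.51 and 0.531. Csf1 had a ratio of 1.65 in gated cells and 0.428 in the other Lyz2 or Csf1r cells, and Cxcl3 of 0.241 and 3.11.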

How the results depend on the processing

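The share ratio of gated macrophages lay between 0.376 and 0.487 under all settings tried. Of 1304 recomputed gene ratios 1015 stayed within the counting interval, 270 moved and 19 turned direction in 15 genes. Only genes past 1.5-fold in the main setting could be marked as turned. Counts of genes past 1.5-fold (300 higher and 347 lower) were 43 and 91 after thinning before the gate (789 genes counted), 474 and 753 on the mean of per-cell CPM, 766 and 836 with at least 20 UMIs, 3023 and 4081 with at least 1 UMI, and 40 and 52 with at least 200 UMIs. They were 165 and 157 in cells with several carrier genes, and 230 were lower in Spp1-only cells. Thinning gave 323 genes higher in the profile. The cytokine list median was -0.45 thinned, -0.029 on per-cell means and -0.10 with at least 200 UMIs, its profile median in Vsig4 KO was -0.36 thinned, and the MHC class II median was -0.010 thinned. Thinned ratios were 0.784 for Mmp12, 0 for Il23a, 0.863 for Cxcl1 and 0 for Slc9a7. Gdf15 was 0.888 without cells with a UMI of Pmel, Mlana, Dct, Tyrp1 or Tyr (65 Vsig4 KO and 169 WT cells kept), Mmp12 0.873 with the gate on Spp1 and Arg1, and Areg 0.904 on per-cell means. In Spp1-only cells the ratio was 1.11 for Spp1, 0.412 for Fabp4, 0.537 for Trem2, 0.0873 for Mmp12, 0.141 for Inhba, 0.825 for Pf4 and 0.220 for F3. In cells with several it was 0.888 for Mmp12, 1.33 for Osm, 0.805 for Areg, 1.27 for Ccl5 and 0.187 for Hdac9. The cause of these changes was not tested. Restricting to those 2 sets and leaving out the 3 deepest cells were chosen after seeing the data. No paired analysis was possible because there was 1 library per genotype, so no replicate could be left out either.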
